A study of Drosophila melanogaster with 17 samples.

Results

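The baseline transcriptome described here is that of the wild-type (WT) larval central nervous system (CNS), read from 3 of the 17 RNA-seq libraries of a Drosophila melanogaster series. The 3 libraries, WT_4, WT_5 and WT_6, are WT replicates 4 to 6 and were, by the study's own account, the WT libraries of its second sequencing round, and they were taken by their labels and not by any measured value. The series was made to ask how a neuronal knockdown of the Survival of motor neuron gene changes the CNS transcriptome, but there is no comparison group here. The question is which genes and gene classes ranked highest in the WT libraries, which were not detected, and which varied among them.

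The animals labelled elavGAL4 or WT carry the driver P{w+mC=GAL4-elav.L}3, which expresses the yeast activator GAL4 in postmitotic neurons, and the insertion P{UAS-PWIZ}15, both in a w background. They are therefore controls for the driver and not unmodified flies. The C24 libraries set beside them in places carry the same driver with P{UAS-Smn RNAi-C24} in place of the PWIZ insertion. Each library was made from a pool of about 200 CNS (optic lobes, central brain and nerve cord) of larvae late in the third instar, so that differences between single larvae cannot be seen. As this was bulk tissue, fewer cells of a type and less RNA per cell cannot be told apart.

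The larval CNS of the fly holds differentiated larval neurons, glia that wrap and feed them, and dividing stem cells called neuroblasts, which are still producing the neurons of the adult. Dissected CNS can carry along attached tissues. The ring gland, which makes the moulting hormone ecdysone, sits on the brain, and fat body, blood cells (hemocytes), gut and salivary glands lie close to it.

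The 3 libraries held 26977495, 18260661 and 26690481 counts over 13872 listed genes, and the 3 totals summed to 71928637. Levels of different genes are given as TPM, the share of transcripts after division by exon length, and 1 gene is compared between libraries in CPM, the share of counts scaled for library composition. WT_5 was the shallowest library and stood apart from the other 2. The log2(CPM + 1) values of WT_4 and WT_6 correlated across 12657 genes with r = 0.998, against 0.995 for WT_4 with WT_5 and 0.994 for WT_5 with WT_6, as a description over genes that are not independent. The spread between libraries beyond counting error, estimated by edgeR as a coefficient of variation shared by all genes, was 12.0% over all 3 libraries and 4.15% for WT_4 and WT_6 alone. The number of variable genes and the calls within gene lists are therefore also given without it.

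The markers of the labelled tissue were present in every library. The neuronal RNA-binding protein gene elav had 584, 602 and 553 TPM in WT_4, WT_5 and WT_6 (580 ± 24.6, SD, n = 3), rank 216 of all genes. The transcription factor gene repo, which marks nearly all lateral glia, had 150, 136 and 145 TPM (144 ± 7.15, SD, n = 3), rank 1789. Both markers thus lay well above the median of 28 TPM over detected genes with a known length, and their libraries lay close together.

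A count was found for 12657 genes (91.2%) in at least 1 library and for 11113 genes in all 3. The number of genes with a count was 11963 in WT_4, 11690 in WT_5 and 11983 in WT_6. In these counts the transcriptome was broad. Duplicate reads were removed before counting, and the part of that step in this breadth and in the levels and ranks below was not tested. Of the genes with a known length, the 89 highest together held 15.3% of all TPM, while the 2639 genes below them and above 100 TPM held 60.8%. The 951 highest genes made up the first 50% of the TPM and 4551 genes made up 90%. At the other end, 3114 detected genes lay below 1 TPM and held 0.0903%.

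The genes of highest level encode the cytoskeleton, the translation machinery and chaperones. The tubulin gene alphaTub84B ranked first, with 4867, 5005 and 4870 TPM in WT_4, WT_5 and WT_6 (4914 ± 78.9, SD, n = 3). Ef1alpha48D, the translation elongation factor that brings aminoacyl-tRNA to the ribosome, followed with 4834, 4898 and 4919 TPM. These neighbours overlapped between libraries, so that their order is not resolved. The cytoplasmic actin gene Act5C had 4004, 4215 and 4037 TPM and lay below both in every library. Reads of alphaTub84B and Act5C that match close paralogs equally well were not counted, so the levels of such genes are uncertain.

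**Figure D1:**
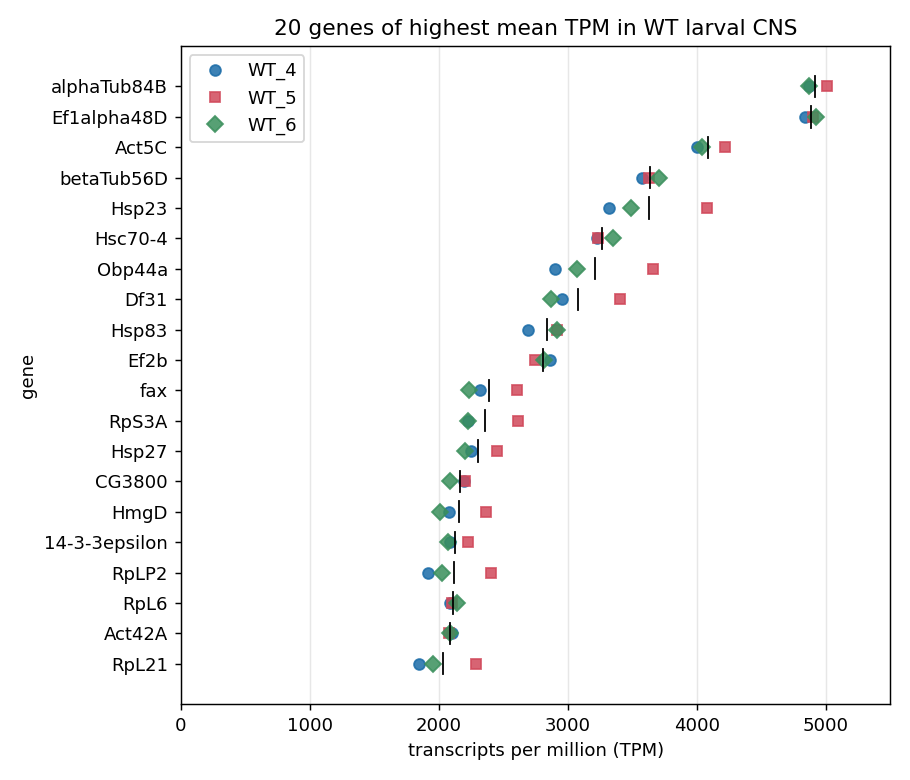
TPM (horizontal axis, starting at 0) of the 20 genes with the highest mean TPM (vertical axis), with 1 point for each of WT_4, WT_5 and WT_6 and a black line at the mean of the 3. The libraries lie close together for most genes, and WT_5 lies to the right for Hsp23, Obp44a and Df31.

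The tubulin gene betaTub56D came next with 3573, 3629 and 3706 TPM. Chaperones took 4 of the 20 places. The small heat shock protein gene Hsp23 had 3320, 4080 and 3486 TPM, the constitutive Hsp70 relative Hsc70-4 had 3226, 3230 and 3348 TPM, and the Hsp90 gene Hsp83 had 2691, 2915 and 2919 TPM. The small heat shock protein gene Hsp27 followed at 2248, 2453 and 2203 TPM. Hsp23 was thus highest in WT_5, whereas Hsc70-4 was nearly level.

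An odorant-binding protein gene stood among them. Obp44a, of a family of small secreted proteins best known for carrying odorants in the antenna, had 2900, 3658 and 3067 TPM (3208 ± 398, SD, n = 3), rank 7. Its relative Obp99a had 1139, 1325 and 1202 TPM. Of the 53 genes on the odorant-binding protein list, 14 had no count and Obp44a alone held 71.3% of the summed TPM of the list, so the level of the family was that of very few members.

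Df31, which encodes a decondensation factor that binds histones, had 2954, 3405 and 2869 TPM. The elongation factor gene Ef2b, which moves the ribosome along the mRNA, had 2862, 2748 and 2817 TPM, and its coefficient of variation (CV) in scaled CPM was 0.5%. The axonal gene fax, known as an enhancer of the Abl tyrosine kinase in axon development, had 2318, 2608 and 2232 TPM. The ribosomal protein genes RpS3A, RpLP2, RpL6 and RpL21, the nucleic acid binding protein gene CG3800, the chromatin protein gene HmgD, the phosphoserine binding protein gene 14-3-3epsilon and the actin gene Act42A completed the 20. The CV of the 20 genes ran from 0.5% to 14.8% with a median of 6.30%. Among the 19 pairs of neighbours in the order, 4 did not overlap between libraries. The TPM of the gene at rank 20 was 2031 and that of the next 1969, so the edge of the list is not sharp.

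Without correction for length the order changed towards longer transcripts. In CPM, Act5C, Ef1alpha48D, fax, Hsc70-4, alphaTub84B, Ef2b, Hsp83, pAbp, 14-3-3epsilon and l(3)neo38 were the 10 highest genes. Here pAbp encodes the poly(A) binding protein. The gene l(3)neo38 had 2448, 2501 and 2395 CPM but rank 75 by TPM.

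Cytoplasmic ribosomal proteins were the class with the largest share. Their 89 genes held 7.82% of the TPM in WT_4, 8.87% in WT_5 and 8.07% in WT_6, with a median of 851 TPM per gene, and 39 of them were among the 100 highest genes. Without WT_5 the mean share was 7.95%. Mitochondrial ribosomal proteins were far lower, at a median of 73.2 TPM and 0.56% to 0.59% of the TPM. The 17 translation factors had a median of 648 TPM, the 35 proteasome subunit genes 455 TPM, and the 30 respiratory chain genes 201 TPM.

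**Figure D2:**
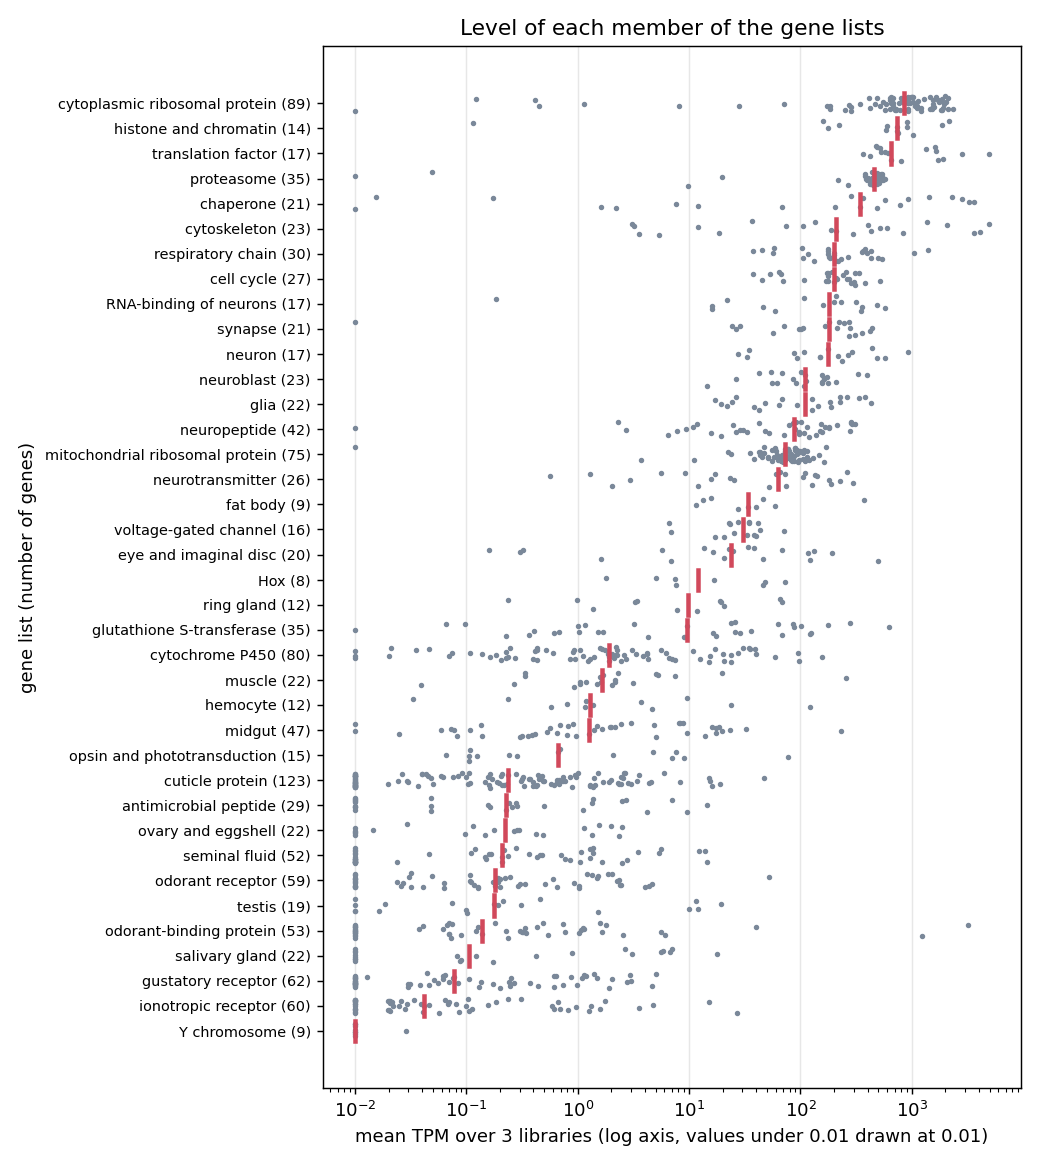
Mean TPM over the 3 WT libraries (horizontal log axis, values under 0.01 drawn at 0.01) of the members of each gene list (vertical axis, with the number of genes), 1 point per gene, leaving out detected genes without a known length. The red bar is the median of the list, 851 TPM for cytoplasmic ribosomal proteins and 180 TPM for synapse genes.

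Genes of neurons were expressed at moderate to high levels, and all 17 members of the neuron list had more than 1 TPM. Appl, the fly member of the amyloid precursor protein family, was highest with 941, 909 and 938 TPM. The elav relative fne had 478, 542 and 455 TPM, and the vesicle SNARE gene n-syb had 432, 440 and 440 TPM. The list held 0.44%, 0.42% and 0.43% of the TPM in WT_4, WT_5 and WT_6, so its share hardly moved. Within it the active zone scaffold gene brp was less even, with 102, 62.9 and 112 TPM, lowest in WT_5 at a ratio of 1.72 in scaled CPM between the highest and the lowest library, which did not reach the 2-fold limit used below.

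Genes of the synapse had a median of 180 TPM over 21 members. The synaptic vesicle chaperone gene Csp was highest with 436, 448 and 422 TPM, followed by the synapse-associated gene Sap47 with 415, 441 and 397 TPM. Caps, a factor for the release of dense core vesicles, had 359, 364 and 339 TPM.

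Genes of glutamate, GABA, acetylcholine and monoamine neurons were detected. The vesicular glutamate transporter gene VGlut had 291, 312 and 290 TPM, the GABA synthesis gene Gad1 had 138, 132 and 136 TPM, and the vesicular acetylcholine transporter gene VAChT had 194, 190 and 184 TPM. VAChT is nested in the choline acetyltransferase gene Cha, which had 67.6, 62.8 and 66.1 TPM, so reads cannot be fully told apart between them. Among genes of monoamine neurons, the aromatic amino acid decarboxylase gene Ddc had 82.5, 68.2 and 71.2 TPM, the serotonin transporter gene SerT had 9.59, 7.56 and 10.5 TPM, and the tyrosine hydroxylase gene ple had 5.96, 5.84 and 4.86 TPM. Ddc was thus above Cha and the other monoamine genes given here were below it in each library.

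Many neuropeptide genes are each used by few neurons. Their list, which also holds the peptide-processing enzyme genes Pal2, amon and Phm, reached a median of 86.95 TPM over 42 genes. Of these genes, 41 had more than 1 TPM. Proct, the proctolin precursor, was highest with 304, 343 and 278 TPM. The insulin-like peptide gene Ilp2 had 291, 283 and 289 TPM and Ilp5 had 277, 294 and 271 TPM, both made by insulin-producing cells of the brain. At the low end, Ilp7 had 8.60, 8.02 and 6.68 TPM. Nplp3 was the member without a count.

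Glial genes had a median of 110 TPM over 22 genes. The astrocyte gene alrm was highest with 417, 455 and 422 TPM, the septate junction gene Nrx-IV had 382, 359 and 388 TPM, and the glutamine synthetase gene Gs2 had 342, 302 and 357 TPM. The blood-brain barrier genes Mdr65 and moody had 190, 177 and 190 TPM and 49.8, 44.2 and 49.0 TPM. The list summed to between 3784 and 3848 CPM, nearly level over the libraries.

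Neuroblast genes were present at a like median of 111 TPM over 23 genes. The growth regulator gene brat had 429, 348 and 413 TPM, the asymmetric division adaptor gene mira had 330, 324 and 341 TPM, and the RNA-binding protein gene CG17838 had 229, 175 and 220 TPM. The list summed to 8392 CPM in WT_4, 6910 CPM in WT_5 and 7953 CPM in WT_6, so WT_5 was lowest. Of the 8 Hox genes, which pattern the nerve cord along its axis, abd-A was highest with 72.9, 73.9 and 70.3 TPM and Antp followed with 50.3, 48.8 and 45.9 TPM. The head gene lab was lowest with 2.37, 1.65 and 1.31 TPM.

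No count was found for 1215 of the 13872 genes (8.76%). A count of 0 over the 3 libraries allows up to 3 counts, or 0.0417 CPM, and covers counting error only. Undetected genes were shorter, with a median exon length of 940 bases against 1831 for detected genes. Exons of another gene covered more than 50% of the exon bases in 258 of 1181 undetected genes (21.8%) and in 445 of 12461 detected genes (3.57%), and pairs of reads that fell in 2 genes were not counted. By chromosome, 10 of 12 genes of the Y chromosome and 1 of 79 genes of chromosome 4 had no count, against 6.77% on X and 12.4% on 2L.

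Undetected genes, 8.76% of all genes, were unevenly spread over the gene lists. The Y chromosome list had the largest share, at 7 of 9 genes. No count was found for 17 of 52 seminal fluid genes, 17 of 62 gustatory receptors, 14 of 60 ionotropic receptors, 12 of 59 odorant receptors, 27 of 123 cuticle proteins, 9 of 29 antimicrobial peptides and 8 of 22 salivary gland genes. All members of the muscle, fat body, hemocyte, ring gland and opsin lists had a count, as had all but 2 of the 47 midgut genes. Apart from midgut these lists hold 9 to 22 genes each, so this says little, and a single count was enough. The median was 0.67 TPM for opsin, 1.26 for midgut, 1.28 for hemocyte and 1.65 for muscle genes. It was 9.76 TPM for ring gland and 33.8 TPM for fat body genes. The undetected salivary gland genes included ng1, ng2, ng3 and ng4, of the new glue group, and the undetected antimicrobial peptides included Mtk and DptB. Of the receptors that were detected, a few stood out. Or43b had 47.5, 55.3 and 54.0 TPM, whereas 16 of the 59 odorant receptors reached 1 TPM. Ir51b had 32.2, 22.1 and 25.7 TPM.

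A 0 was also listed for genes that are used in most cells or neurons. The heat shock gene Hsp22, the mitochondrial ribosomal protein gene mRpL53 and the endocytosis gene stnB were at 0 in the whole series of 17 libraries, and other genes shared 100% of their exon bases. The proteasome subunit gene Prosalpha1 had no count in the 17 libraries either and shared 1.75% of its exon bases. These genes are listed at 0 and nothing can be said about their expression.

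Of the undetected genes, 645 had a count in at least 1 of the other 14 libraries and 570 had none in all 17. The 5 with most counts elsewhere were CG5084 (11857 counts summed), ng3 (3110), CG13227 (2614), CG42834 (2481) and CG9759 (1942). C24_1 alone held 11712 of the counts of CG5084, and most counts of the other 4 were in WT_1, WT_2 and C24_1. In the 3 C24 libraries of the same sequencing round 301 undetected genes had a count, but only CG10934 with 17 counts and CG42580 with 10 counts reached 10 counts over these 3 libraries.

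To find the genes that varied, the counts of each gene were tested for equal proportions in the 3 libraries with a chi-square test, which compares these libraries and not conditions. Of 9591 genes with a mean of at least 10 counts, 3945 (41.1%) differed beyond counting error at an adjusted p of 0.05. A gene was called variable where the highest library was also at least 2-fold above the lowest. This held for 277 genes (2.89%). Variable genes were of low level, with a median of 1.5 CPM against 38.4 CPM for all tested genes. None of the 100 highest genes was called. Of the 2728 tested genes with a mean of at least 100 TPM only CG12057 was, and it reached that mean through WT_5 alone, with 1.11, 347 and 0.372 TPM.

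WT_5 was the highest library for 175 of the 277 genes, WT_4 for 73 and WT_6 for 29. The highest library was at least 2-fold above the next in 134 genes for WT_5 (1.40% of those tested), in 25 genes for WT_4 (0.261%) and in 9 genes for WT_6 (0.0938%). Tested without WT_5, 79 genes varied between WT_4 and WT_6, and 72 of these were among the 277. In the 3 C24 libraries of the same round the same rule called 582 of 9326 genes (6.24%). Of the 162 WT variable genes that could be tested there, 57 were called, which are 35.2% of those and 9.79% of the genes called in C24. These numbers include C24_6, where the neuron list summed to 11307 CPM, against 15249 in C24_5 and 15640 in C24_7. For their raised dispersion, the study left WT_5 and C24_6 out of a second comparison of its own. The study proposes that this dispersion came from transcripts of tissues outside the CNS, at a fairly small magnitude, which was not tested here. It kept WT_5 in its later comparison with a strain that also carries a deletion of the knocked-down gene.

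**Figure D3:**
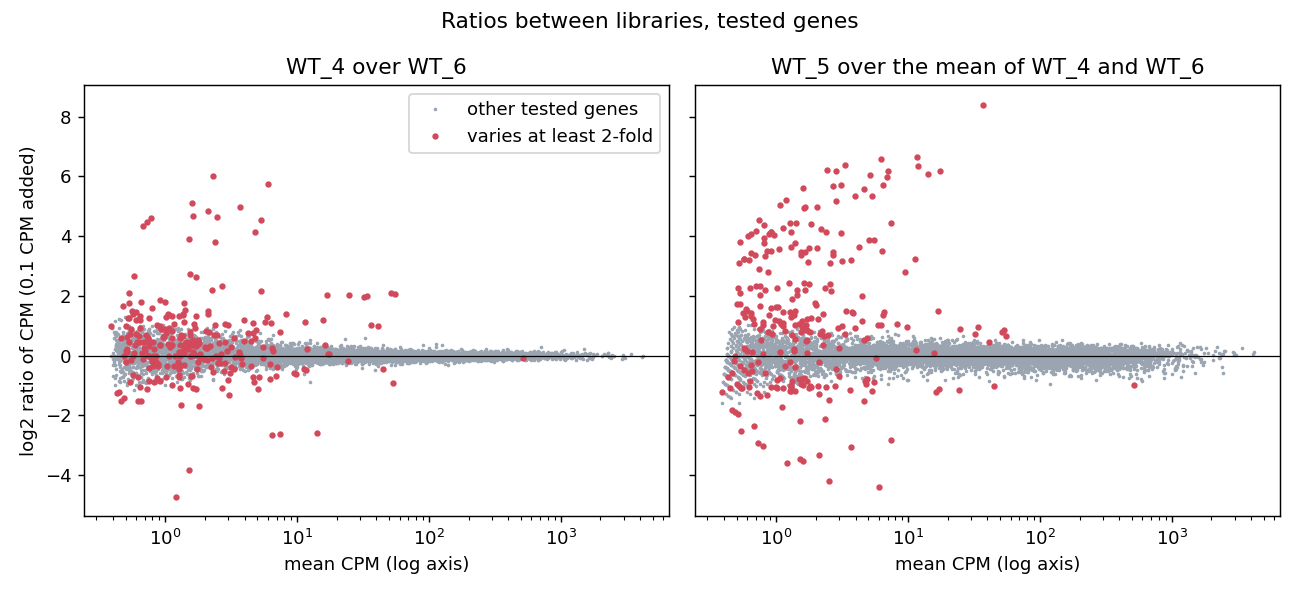
Log2 ratio of scaled CPM (vertical axis, 0.1 CPM added) against mean CPM (horizontal log axis) for the tested genes, between WT_4 and WT_6 (left) and between WT_5 and the mean of the other 2 (right). Red points are the 277 variable genes, which lie mostly at low CPM and, in the right panel, mostly above 0.

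The genes with the largest ratios were high in WT_5, and many encode digestive enzymes. CG12057 had 9 counts in WT_4, 2033 in WT_5 and 3 in WT_6, a 964-fold ratio of scaled CPM between the highest and the lowest library. The Jonah genes encode serine proteases of the larval and adult midgut. Jon99Ciii had 2, 766 and 25 counts in WT_4, WT_5 and WT_6, and was at least 370-fold higher in WT_5 than in WT_4 with 3 counts taken as the floor of a library. Jon65Ai had 2, 342 and 3 counts, at least 165-fold. Jon66Cii had 0, 136 and 0 counts, at least 65.8-fold. In each of these genes WT_5 was at least 43.57-fold above the next library. Jon99Ciii was also called without WT_5, at least 8.46-fold higher in WT_6 than in WT_4.

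WT_5 was likewise far above the next library for Amy-d, an amylase that digests starch, with 7, 251 and 3 counts, and for Ag5r2 with 10, 652 and 8 counts. Of the 20 variable genes with the largest ratio 19 were highest in WT_5, among them Jon99Fi, Jon65Aii, Jon66Ci, Jon99Ci, CG11912, CG11911, CG18180, CG6296, CG10182, CG31233, CG8773, CG31198 and the transporter gene Mdr50. The exception was CG7290, with 473, 6 and 6 counts, which was high in WT_4. In the C24 libraries CG12057 had 10, 2 and 7 counts. Of the 134 genes chosen as at least 2-fold above the next WT library, 113 lay in WT_5 at least 2-fold above each of the 3 C24 libraries. As the same high WT_5 values chose these genes, a large number was to be expected and it is a description only. The C24 libraries were also scaled apart from the WT libraries.

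Of the 47 genes of the midgut list 20 reached the count limit, and 13 of these reached it only through their highest library, so that they had to differ and the number called is a description. It was 18, against 2.89% of all tested genes. Of the 18, 13 were highest in WT_5 and 5 in WT_4. Without WT_5 the number called was 11 of 14, against 79 of 9638 tested genes. The whole list summed to 216 CPM in WT_4, 354 CPM in WT_5 and 185 CPM in WT_6. Its highest member, Mal-A5, had a mean of 230 TPM against a median of 1.26 TPM for the list. Mal-A5 was not called, so the sum is weighted towards a gene that was not called variable. The WT_4 genes were different Jonah and trypsin genes. Jon65Aiv had 344, 53 and 12 counts, Jon65Aiii had 296, 54 and 14 counts, and epsilonTry had 193, 2 and 5 counts. WT_4 was also high in CG33128 with 124, 2 and 1 counts, in CG8661 with 162, 4 and 3 counts and in CG4734 with 114, 2 and 5 counts. The part of gut tissue in these differences was not tested.

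Cytochrome P450 genes, which oxidise hormones, toxins and drugs, were called in 10 of 54 tested genes, against 2.89% of all tested genes. All 10 were highest in WT_5, and 5 of the 10 reached the count limit only through that library. Without WT_5 the call held for 1 of 51, against 79 of 9638 tested genes. Cyp9b2 had 51, 305 and 22 counts, Cyp6d5 had 28, 208 and 15 counts, and Cyp4d8 had 1, 68 and 3 counts. The summed level of the list moved little, from 567 to 643 CPM, as its most abundant members were not called.

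**Figure D4:**
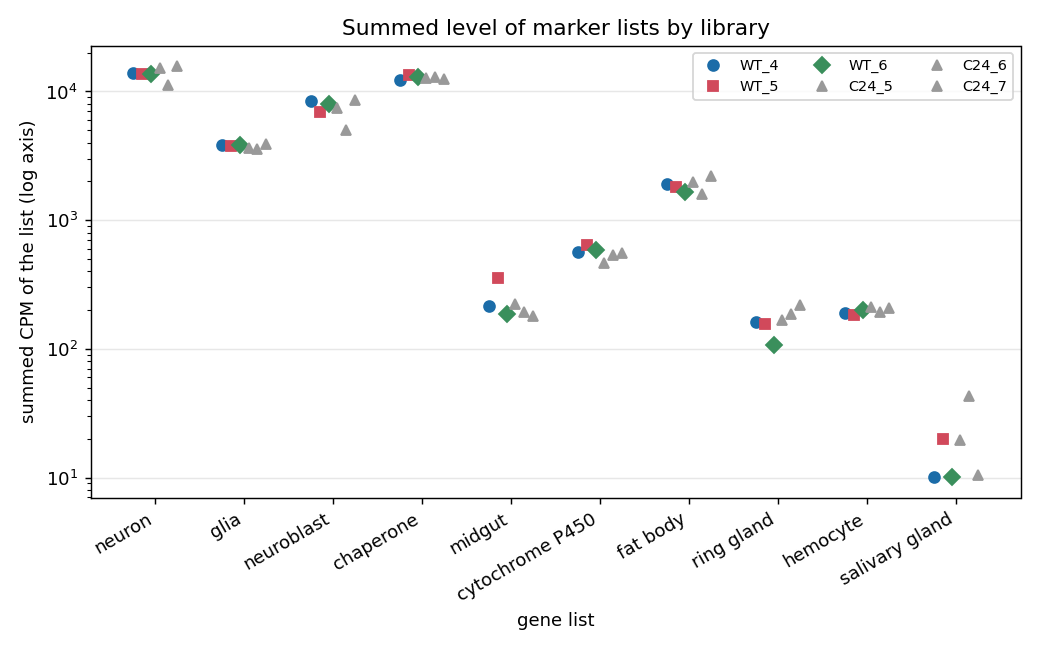
Summed CPM (vertical log axis) of 10 gene lists (horizontal axis) in the 3 WT libraries (coloured) and the 3 C24 libraries of the same round (grey), 1 point per library. The midgut list is highest in WT_5 with 354 CPM and the ring gland list lowest in WT_6 with 107 CPM, while the neuron list lies between 13760 and 13966 CPM in the WT libraries.

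Storage protein genes of the fat body were low in WT_6. Lsp1gamma, a larval serum protein that stores amino acids for metamorphosis, had 1792, 1323 and 414 counts in WT_4, WT_5 and WT_6, or 78.5, 80.5 and 18.3 TPM. Lsp2 had 1119, 928 and 273 counts and Fbp1, which encodes a receptor for larval serum protein uptake, had 2043, 1362 and 473 counts. Of the 9 genes of the list 6 were called, against 2.89% of all tested genes. Without WT_5 the number called was also 6, against 79 of 9638 tested genes. Between WT_4 and WT_5 alone it was 0, against 247 of 9613 tested genes. Rfabg, the lipophorin precursor, was not called, with 389, 352 and 370 TPM.

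Ecdysone synthesis genes of the ring gland were also lowest in WT_6. The Halloween gene spok had 1318, 932 and 651 counts, phm had 581, 304 and 247 counts, sad had 409, 234 and 182 counts and nvd had 149, 109 and 68 counts. In scaled CPM their ratios lay between 2.04 and 2.31. Of 11 tested genes of the list 6 were called, against 2.89% of all tested genes. The 6 also include jhamt, of juvenile hormone synthesis, and the receptor gene tor. Of the 11, 1 reached the count limit only through its highest library, and it was called. The ratio of jhamt was 2.84 over the 3 libraries but 1.23 between WT_4 and WT_6 alone. Its call did not hold when genes with a mean of at least 1 count were tested. Without WT_5 the number called was 4 of 10, against 79 of 9638 tested genes. Between WT_4 and WT_5 alone it was 0 of 11, against 247 of 9613 tested genes. Start1, the cholesterol transporter, was not called, with 68.7, 66.5 and 63.1 TPM. Nor was Ptth, the brain hormone that triggers ecdysone synthesis and is made by neurons, with 11.1, 11.5 and 12.6 TPM.

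Hemocyte genes went the other way. Hml, which encodes hemolectin, a clotting protein of hemocytes, had 121, 37 and 197 counts, eater had 9, 9 and 30 counts and proPO-A1, a prophenoloxidase gene of crystal cells, had 66, 39 and 117 counts. These 3 of 10 tested genes were called, against 2.89% of all tested genes. Of the 10, 2 reached the count limit only through their highest library, and 1 of these 2 was called, so the number called is a description. Each of the 3 called genes was highest in WT_6. Without WT_5 the number called was 1 of 11, against 79 of 9638 tested genes. The summed level of the list lay between 184 and 200 CPM, since the phagocytosis receptor gene crq, which made up most of it, was level with 122, 125 and 119 TPM.

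A few single genes were high in WT_6. Pbprp5, an odorant-binding protein gene, had 1, 1 and 93 counts, at least 31.6-fold higher in WT_6 than in WT_4 and at least 21.8-fold higher than in WT_5, and CG17687 was 21.2-fold higher in WT_6 than in WT_4 and 10.4-fold higher than in WT_5. Idgf1, an imaginal disc growth factor of the chitinase family, had 76, 26 and 479 counts in the WT libraries and 412, 592 and 337 in the C24 libraries. WT_6 was thus within the range of the C24 libraries in raw counts and WT_4 and WT_5 were below it. CG5162 and CG42255 showed smaller differences, at 2.42-fold and 2.39-fold.

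The inducible heat shock genes Hsp68, Hsp70Bb and Hsp70Ba were lowest in WT_4. Hsp68 had 780, 1396 and 1449 counts, Hsp70Bb had 156, 271 and 238 counts and Hsp70Ba had 7, 49 and 27 counts. Of the 18 tested chaperone genes 5 were called, against 2.89% of all tested genes. The 5 were all of the Hsp70 type, and each was highest in WT_5 after scaling. Without WT_5 the number called was 2 of 18, against 79 of 9638 tested genes. The Hsp70 copies are nearly identical, so their single values are uncertain. None of the tested members of the neuron, synapse, neurotransmitter, neuropeptide, glia and neuroblast lists was called, against 2.89% of all tested genes. The medians of these lists lay between 62.7 and 180 TPM. Among all 2728 tested genes with at least 100 TPM only 1 was called, and the part of level in this absence of calls was not tested.

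Exon length moved with the ratio of WT_5 to the others. In 9448 tested genes with a known length the median log2 ratio of WT_5 to the mean of WT_4 and WT_6 was 0.13 in the shortest of 5 length classes and -0.16 in the longest. The medians of WT_4 over WT_6 lay between -0.03 and 0.00. The very long gene Msp-300, which encodes a nesprin that anchors nuclei, had 603, 315 and 639 CPM and was called, with a ratio of 1.05 between WT_4 and WT_6 alone. As the ribosomal protein genes are short and brp and the neuroblast genes brat and pros are long, their differences in WT_5 move with length, and the part of length in them was not tested.

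**Figure D5:**
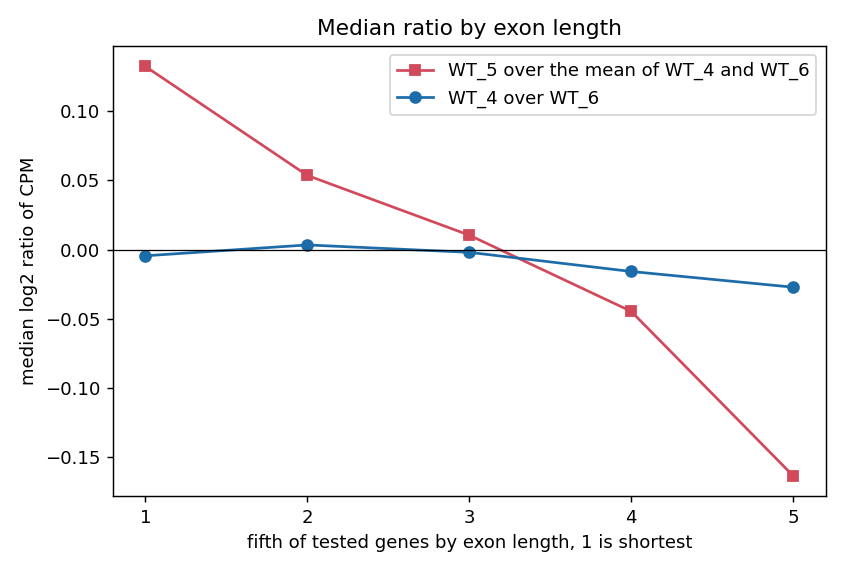
Median log2 ratio of scaled CPM (vertical axis) in 5 equal classes of the tested genes by exon length (horizontal axis, 1 is the shortest), for WT_5 over the mean of WT_4 and WT_6 (red) and for WT_4 over WT_6 (blue). The red line falls from 0.13 to -0.16 and the blue line stays near 0.

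At the other end of the spread, among genes with at least 100 TPM, Klp64D, a kinesin motor subunit, had 142, 143 and 142 CPM in WT_4, WT_5 and WT_6, a CV of 0.138%. The others of the 10 with the smallest CV were Sgt, CG6206, MED31, CG7288, CG42613, Eip55E, eIF-3p66, fzy and B52, and the largest CV among them was 0.309%. With 3 libraries so small a CV was picked as the lowest of many and is a description.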

How the data were processed

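Poly-A selected RNA of 3 WT pools was sequenced as unstranded read pairs. After filtering on read quality, the authors aligned to BDGP5 with BWA at a single matching position, removed duplicates with SAMTools and counted pairs per FlyBase gene with htseq-count in union mode; the deposited values used are these raw counts. A second deposited table of normalized values and of the authors' own comparisons was not used. All columns were matched to samples (0 left over).

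TPM used exon lengths of the BDGP6 annotation for 13642 of 13872 genes, matched by identifier (13153), symbol (275) or synonym (214); the 230 others held 0.985% of the counts. CPM used TMM factors of edgeR 4.0.16 in R 4.3.3. Genes with a mean of at least 10 counts were tested by a chi-square test of equal proportions (2 degrees of freedom, Benjamini-Hochberg, 0.05, 2-fold; libraries under 3 counts set to 3). On simulated counts for the WT libraries it recovered 99% of 2.5-fold and 100% of 4-fold changes, with 3 false calls among 9612 genes. The simulated counts held counting error only and no spread between pools. The 3 false calls are therefore not an error rate for the real libraries, whose common coefficient of variation was 12.0%. Log ratios added 0.1 CPM. Nothing says how independent the pools were beyond being separate pools.

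Named were the 20 highest genes by TPM and 10 by CPM, the 20 variable genes of largest ratio with at least 1 CPM, up to 5 per library, the 10 steadiest, the 5 undetected genes with most counts elsewhere, and members of the 38 gene lists. The members and lists were chosen with earlier results of these data known, and lists were trimmed of misnamed members after the files were seen. Spok, phm, Msp-300 and other genes outside the rule were named after their values were seen. Alternatives were other scaling (DESeq2 1.42.0), count minimums, fold limits and leaving out each library.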

Additional observations from a re-analysis of the deposited data

How the results depend on the processing

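No paired analysis was possible because no groups were compared. The count of 277 variable genes was 276 with DESeq2 size factors, 278 with total counts and 407 at a mean of at least 1 count. It was 92 at a mean of at least 50 counts, 517 at a fold limit of 1.5 and 182 at a fold limit of 3. Leaving out each library gave 79 to 247 genes, with 79 without WT_5. The common coefficient of variation lay between 4.15% (without WT_5) and 15.2% when a library was left out, and between 10.9% and 12.2% under the other settings. Undetected genes numbered 2392 at no more than 3 counts summed and 4748 under 1 CPM in each library, and 1417 to 1525 when a library was left out. Of the 20 highest genes, 10 were among the 20 highest by CPM without length, 19 by the median, and 19 to 20 when a library was left out. Shares by CPM without length were 2.89% for ribosomal proteins, 1.38% for the neuron list and 0.382% for the glia list, and when a library was left out 7.95% to 8.47%, 0.427% to 0.434% and 0.307% to 0.312%. Of 50 variable genes named, 21 of them chosen after their values were seen, 22 were still called without WT_5, 39 without WT_4 and 34 without WT_6. The calls within lists without each library were also added after the data were seen; the chaperone calls fell from 5 to 1 without WT_4. Depth limits low genes: 3 counts are 0.111 CPM in WT_4, 0.164 in WT_5 and 0.112 in WT_6. Gene lengths come from a later annotation than the counts.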
